A study of Mus musculus with 6 samples.

Results

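The Schlafen genes are a family of mouse genes that lie side by side on chromosome 11. All rows of the count table whose gene symbol starts with Slfn were taken as members, which gave 8 of 13709 genes: Slfn1, Slfn2, Slfn3, Slfn4, Slfn5, Slfn8, Slfn9 and the pseudogene Slfn10-ps. Their RNA was measured by bulk RNA-Seq in CD4+YFP+CD25+ regulatory T cells (Tregs) from 3 WT and 3 KO samples. Tregs depend on the transcription factor Foxp3 and keep other T cells in check. WT mice carried Foxp3Cre, and KO mice carried Foxp3Cre together with Zfp335 fl/fl, so that Cre made from the Foxp3 locus removed the zinc finger gene Zfp335 in Foxp3-expressing cells of KO mice. Both genotypes therefore carried the Cre and YFP insertion at Foxp3. The mice were C57BL/6 and, per the study's methods, 2 weeks old. The labels name lymph nodes in some fields and spleen in others, and whether a sample was 1 mouse or a pool was not stated, so the p-values measure the spread between these samples, which may be technical.

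Schlafen proteins share a core domain that can bind RNA, and they fall into a short group (Slfn1 and Slfn2), an intermediate group (Slfn3 and Slfn4) and a long group with a helicase-like region at the C-terminus (Slfn5, Slfn8 and Slfn9). The family takes its name from the German word for sleeping, because Slfn1 slows the growth of T cells, and Slfn2 is needed to hold T cells at rest. Slfn2 binds transfer RNAs and protects them from cleavage by the nuclease angiogenin, and several family members are induced by type I interferon.

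In the RefSeq annotation of GRCm38.p6 (mm10), the 8 genes occupied 264 kb of chromosome 11, in the order Slfn5 (chr11:82951349-82964850), Slfn9 (chr11:82974316-82991830), Slfn8 (chr11:83002125-83020810), Slfn10-ps (chr11:83028123-83040533), Slfn2 (chr11:83065112-83070678), Slfn1 (chr11:83116820-83122670), Slfn4 (chr11:83175172-83190216) and Slfn3 (chr11:83191330-83215154). In GENCODE M21 the coding sequences ran to 337 codons for Slfn1, 378 for Slfn2, 640 for Slfn3, 602 for Slfn4, 884 for Slfn5 and 910 for both Slfn8 and Slfn9.

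Promoter sequences show which members carry the letters of an interferon-stimulated response element (ISRE), the site at which the interferon-activated factor ISGF3 binds. RefSeq windows from 250 bases before to 50 bases after the start site were at hand for 7 of the 8 members, all but Slfn10-ps. The pattern searched was GAAA, any 2 bases and GAAA, on both strands, so that it reads TTTC, any 2 bases and TTTC on the other. It was found in the windows of Slfn5, Slfn8 and Slfn9, and not in those of Slfn1, Slfn2, Slfn3 or Slfn4. Over all genes with a window, 3.99% of 27025 held it. The pattern of the gamma-activated site, TTC, any 3 bases and GAA, which is the same on both strands, was in none of the 7 members and in 9.55% of all genes. A match is a description of the letters and not of a bound site. The 180 bases before the start site of the 3 long members are given 5′ to 3′ on the strand of the gene, with the match in capitals.
Slfn5, chr11:82951922-82952101, plus strand: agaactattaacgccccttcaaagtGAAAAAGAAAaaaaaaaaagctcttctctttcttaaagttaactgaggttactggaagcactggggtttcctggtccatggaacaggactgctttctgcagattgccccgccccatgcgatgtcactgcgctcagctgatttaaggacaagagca
Slfn9, chr11:82991831-82992010, minus strand: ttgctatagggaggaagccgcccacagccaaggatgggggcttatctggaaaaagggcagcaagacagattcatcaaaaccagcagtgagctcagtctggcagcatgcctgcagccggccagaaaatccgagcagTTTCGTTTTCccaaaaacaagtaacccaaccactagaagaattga
Slfn8, chr11:83020811-83020990, minus strand: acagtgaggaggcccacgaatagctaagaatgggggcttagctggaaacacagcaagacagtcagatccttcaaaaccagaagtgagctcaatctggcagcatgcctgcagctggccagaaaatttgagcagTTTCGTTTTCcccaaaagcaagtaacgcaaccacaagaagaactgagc
Counted from the start site, the match of Slfn5 began at −155, that of Slfn9 at −45 and that of Slfn8 at −48. The start site used for Slfn5 was not the first base of its RefSeq span given above. That span begins at chr11:82951349, so the printed Slfn5 stretch lies inside the annotated gene. From another RefSeq start site of Slfn8, further into the gene, the same letters began at −136. Slfn8 and Slfn9 had the same 10 letters at the match.

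Neighboring Schlafen genes resemble each other closely, which bears on how their reads could be assigned. Between the coding sequences of Slfn8 and Slfn9, 92.7% of aligned bases were identical, and the longest run without a difference was 139 bases. Slfn3 and Slfn4 were identical at 92.1% of aligned bases, with a longest run of 95. Slfn2 shared 73.8% with Slfn3, 72.9% with Slfn4 and 70.3% with Slfn1, and its longest run with Slfn4 was 101 bases. Slfn5 shared 57.0% to 62.5% with the other 6 coding members. The following stretches of 90 coding bases, with the differing bases within each pair in capitals, show how few differences a read has to separate the copies.
Slfn8, chr11:83017553-83017642, minus strand: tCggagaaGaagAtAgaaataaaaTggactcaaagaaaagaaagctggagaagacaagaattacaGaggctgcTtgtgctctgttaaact
Slfn9, chr11:82988139-82988228, minus strand: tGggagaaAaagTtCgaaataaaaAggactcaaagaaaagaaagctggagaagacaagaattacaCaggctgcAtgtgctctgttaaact
Slfn4, chr11:83186617-83186706, plus strand: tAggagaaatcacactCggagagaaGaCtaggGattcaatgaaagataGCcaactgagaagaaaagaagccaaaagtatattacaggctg
Slfn3, chr11:83212636-83212725, plus strand: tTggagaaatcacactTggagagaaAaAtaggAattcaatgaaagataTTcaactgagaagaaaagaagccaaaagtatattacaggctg
Each pair differed at 7 of these 90 bases, because stretches were chosen with an identity nearest to that of the whole pair.

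To give the room for misassigned reads a size, the longest transcript of each member was scanned for windows that occur unchanged in the transcripts of another gene. Of all 50-base windows, 19.7% were shared for Slfn10-ps, 18.5% for Slfn3, 15.4% for Slfn8, 11.9% for Slfn9, 11.8% for Slfn5, 11.6% for Slfn4, 4.27% for Slfn2 and 0.606% for Slfn1. At 100 bases these shares were 7.84% for Slfn10-ps, 3.62% for Slfn3, 3.71% for Slfn8, 3.90% for Slfn9, 6.85% for Slfn5, 0.285% for Slfn4, 0.128% for Slfn2 and 0% for Slfn1. The shared windows of Slfn5 at 100 bases were mostly those of the opposite-strand transcript Slfn5os, which overlaps 559 of its exon bases, and counts made without strand could not separate the 2 transcripts there. Whether the counting used strand, and the read length, were not given in the sources used here. Values of Slfn3, Slfn4, Slfn8, Slfn9 and Slfn10-ps are therefore uncertain as to copy, and sums over similar copies are given beside them.

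**Figure D1:**
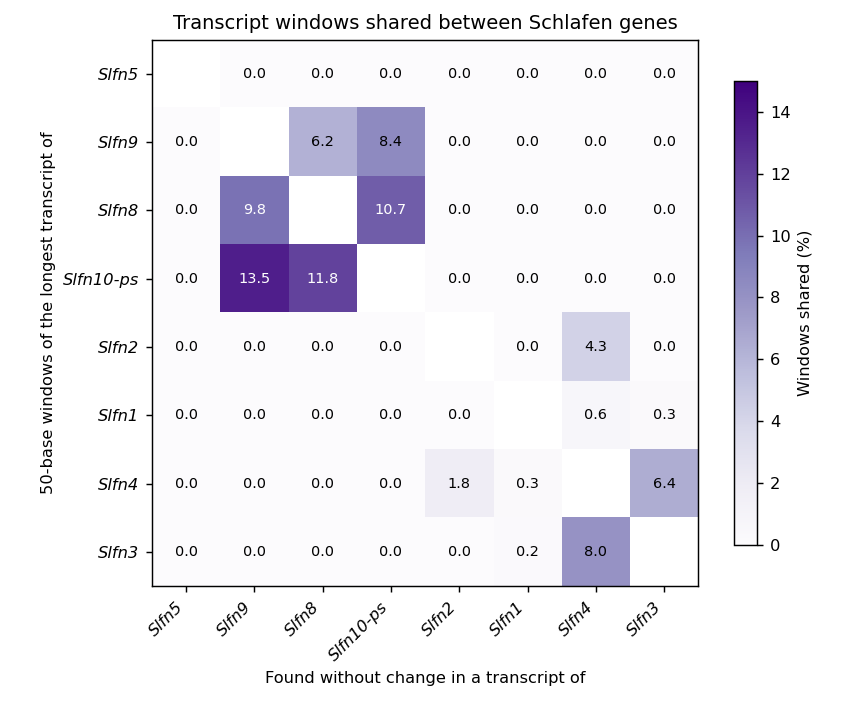
Share (percent) of the 50-base windows in the longest transcript of each Schlafen gene (rows) that occur unchanged in a transcript of each other Schlafen gene (columns), both in chromosome order. Sharing falls into blocks: Slfn8, Slfn9 and Slfn10-ps share 6.24% to 13.5% with each other, Slfn3 and Slfn4 share 6.45% and 7.97%, Slfn2 shares 4.27% with Slfn4, and Slfn5 shares none of its windows with another Schlafen gene.

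The samples held 32032631 to 40728419 counts, and 13594 genes including all 8 Schlafen genes passed the low-count filter. Levels are in CPM, the counts a gene would have in a library scaled to a total of 1000000. Zfp335 was at 94.3 to 103 CPM in WT and 37.0 to 40.2 CPM in KO samples, so KO samples held 38.6% of the WT mean (log2 fold change −1.37, SE 0.07). The markers of the sorted cells were present in both genotypes, with means of 857 CPM in WT and 465 CPM in KO for Foxp3 and of 659 and 788 CPM for Cd4. Foxp3 stood at 738, 642 and 1190 CPM in WT replicates 1 to 3 and at 460 to 472 CPM in KO samples. The WT and KO means were 463 and 338 CPM for Cd3e, 704 and 326 for Ikzf2, and 646 and 487 for Ctla4. They were 1038 and 958 CPM for Il2ra and 222 and 207 for Tnfrsf18. Called genes had a fold change above 1.5 together with p under 0.05 and adjusted p under 0.1, the cutoffs of the study. WT replicate 3 stood apart from WT replicates 1 and 2: the median chi-square of a gene's counts between it and each of them was 25.8 to 26.3 times that of sampling noise, against 10.05 times between those replicates and 5.25 to 6.07 times among KO samples. The 11 tested interferon-stimulated genes of the list used here summed to 427 and 421 CPM in WT replicates 1 and 2, 1278 CPM in WT replicate 3, and 935 to 975 CPM in KO samples. The main Schlafen values are therefore given with and without it.

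The family did not move as a block between genotypes. Slfn3 and Slfn4 rose in KO Tregs, Slfn5 fell, and Slfn1, Slfn8 and Slfn9 did not pass the test. Slfn2 and Slfn10-ps were lower in KO with an adjusted p under the cutoff but by less than the 1.5-fold required for a call, so that 5 of 8 members had an adjusted p under 0.1, beside 47.0% of all genes. In all, 3 of 8 members were called, which is 37.5% of the family beside 24.4% of all genes tested. The KO and WT values did not overlap for 6 of 8 members, beside 53.8% of all genes. KO was above WT in 3 of these and below it in the other 3, beside 26.2% and 27.6% of all genes. The median log2 fold change of the 8 members was −0.23, and that of all genes was −0.04. Leaving out WT replicate 3, the median of the members changed sign to 0.04, beside −0.02 for all genes, and 2 of 8 members were called, beside 26.8% of all genes.

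**Figure D2:**
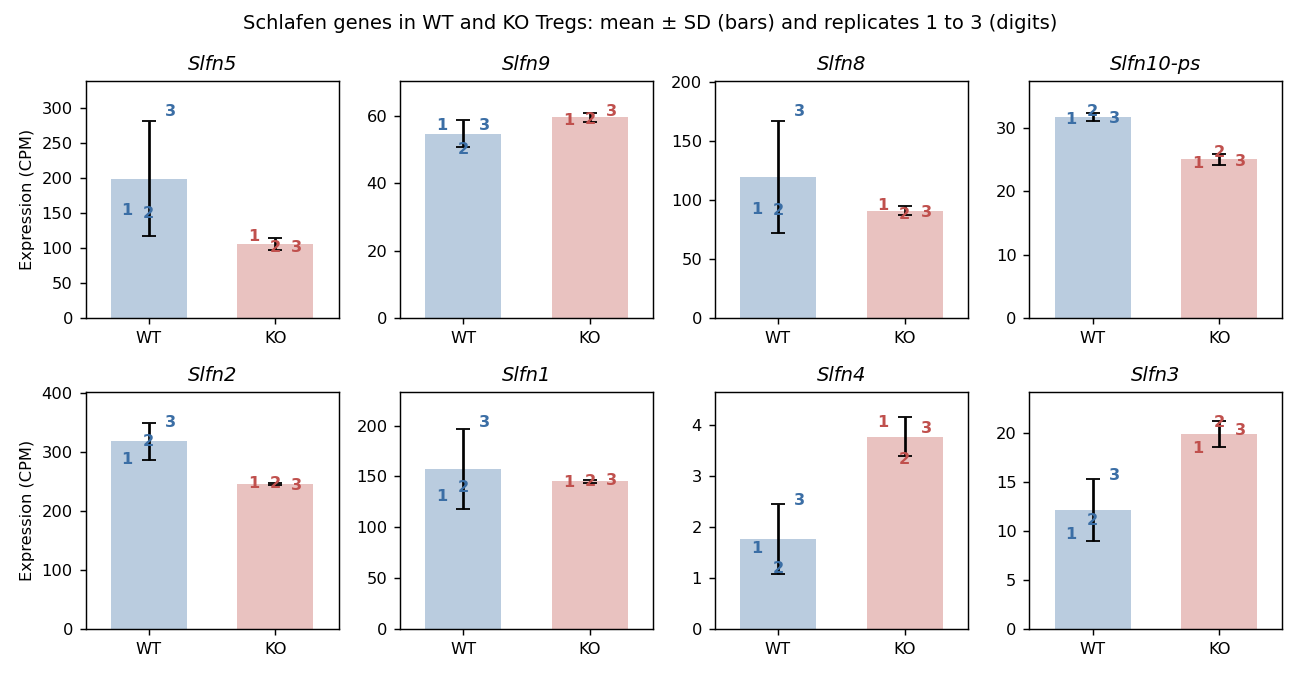
CPM of each Schlafen gene in the 3 WT and 3 KO samples (points), with the mean and SD of each genotype. KO samples lie above all WT samples for Slfn3, Slfn4 and Slfn9, below all WT samples for Slfn2, Slfn5 and Slfn10-ps, and overlap the WT samples for Slfn1 and Slfn8.

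Among the short members, Slfn2, the gene that keeps T cells quiescent, was the most abundant Schlafen in these cells. Slfn2 stood at 288, 317 and 349.7 CPM in WT replicates 1 to 3 and at 246, 246 and 244 CPM in KO replicates 1 to 3. All KO samples were below all WT samples, and the KO samples lay within a few CPM of each other. The mean went from 318 ± 31.0 CPM (SD, n = 3) to 245 ± 1.42 CPM, 77.1% of WT, which on the log2 scale was a fold change of −0.37 (SE 0.08, adjusted p = 0.00905 by edgeR's quasi-likelihood test). Slfn2 thus passed the test of a difference but not the fold cutoff, and it kept both properties without WT replicate 3 (log2 fold change −0.31, SE 0.06, adjusted p = 0.000303).

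Slfn1, whose forced expression slows T cell growth, stood at 129.9, 139 and 203 CPM in WT and at 144, 145 and 146 CPM in KO samples. The KO values lay inside the WT range, between WT replicate 2 and WT replicate 3. It averaged 157 ± 39.7 CPM among WT and 145 ± 1.24 CPM among KO samples (SD, n = 3), which on the log2 scale was a fold change of −0.12 (SE 0.16, adjusted p = 0.598). Without WT replicate 3 the log2 fold change was 0.11 (SE 0.06, adjusted p = 0.151), so the sign of this small difference turned on that sample and no difference was detected either way.

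The intermediate members were the called rises. Slfn3 stood at 9.67, 11.1 and 15.7 CPM in WT and at 18.4, 21.03 and 20.2 CPM in KO samples. Every KO sample was above every WT sample, and WT replicate 3 was the WT sample nearest to them. Slfn3 rose from 12.1 ± 3.13 to 19.9 ± 1.32 CPM (SD, n = 3), and its log2 fold change was 0.71 (SE 0.18, adjusted p = 0.0168). The call was lost without WT replicate 1, where the log2 fold change was 0.57 and the adjusted p 0.0436, just under the fold cutoff. It held without WT replicate 3, with 0.94 on the log2 scale (SE 0.12, adjusted p = 1.41e-05).

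Slfn4, a gene known for its expression in myeloid cells and its induction by interferon, was the rarest member. Slfn4 had 58, 39 and 84 counts in WT and 148, 134 and 139 counts in KO samples, which gave 1.58, 1.19 and 2.52 CPM in WT and 4.05, 3.34 and 3.94 CPM in KO. The lowest KO sample was above the highest WT sample, which was again WT replicate 3. Slfn4 rose from 1.76 ± 0.687 to 3.78 ± 0.386 CPM (SD, n = 3), and its log2 fold change was 1.10 (SE 0.33, adjusted p = 0.0312). Without KO replicate 1 the adjusted p was 0.104 and the call was lost, while without WT replicate 3 the log2 fold change was 1.44 (SE 0.31, adjusted p = 0.00137).

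Markers of myeloid cells moved with Slfn4. Of 7 listed, Cd14 was not analysed here, and the levels summed over the other 6 (Lyz2, Csf1r, Itgam, S100a8, S100a9 and Fcgr3) lay between 9.79 and 20.5 CPM in WT and between 44.2 and 50.3 CPM in KO samples. All 6 were called higher in KO, beside 11.9% of all genes. Lyz2 stood at 12.7, 13.9 and 4.30 CPM in WT replicates 1 to 3 and at 20.6, 18.6 and 19.3 CPM in KO samples. Its adjusted p was 0.0863 by edgeR's quasi-likelihood test, and its lowest value was that of WT replicate 3. S100a8 and S100a9, which mark neutrophils and monocytes, had 0 counts in every WT sample. The study's single-cell RNA-Seq of Tregs from younger mice also reported high S100a8 and S100a9 in a dysfunctional Treg subset that accumulated in KO. Within WT the order was the other way, since WT replicate 3 had the highest Slfn4 level and the lowest myeloid sum. The summed NK cell markers lay between 1.71 and 2.58 CPM in WT and between 3.39 and 5.05 CPM in KO samples, the CD8 markers between 9.32 and 13.2 and between 12.0 and 12.7 CPM, and the B cell markers between 16.0 and 18.1 and between 10.76 and 10.95 CPM. The erythroid markers lay between 15.1 and 61.1 CPM in WT, lowest in WT replicate 3, and between 26.4 and 28.0 CPM among KO samples. Their part in the Slfn4 result was not tested. In bulk RNA, more cells of a type and more RNA per cell cannot be told apart.

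Because Slfn3 and Slfn4 share windows of 50 bases, their counts were also added and tested as 1 gene. The sum stood at 11.2, 12.3 and 18.2 CPM in WT and at 22.5, 24.4 and 24.2 CPM in KO samples, again without overlap. Its log2 fold change was 0.77 (SE 0.18, adjusted p = 0.0122), and 1.01 (SE 0.11, adjusted p = 2.29e-06) without WT replicate 3. The rise of the pair did not depend on how reads were split between its members. The sum does not cover Gm11427, which was not analysed here and which shared 7.90% of the 50-base windows and 3.40% of the 100-base windows of Slfn3, and 4.12% and 0.233% of those of Slfn4. No 100-base window was shared between Slfn3 and Slfn4. Slfn2, with a WT mean of 318 CPM, was outside the sum as well. It shared 1.77% of the 50-base windows and 0.0518% of the 100-base windows of Slfn4. Its part in the Slfn4 result was not tested.

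Slfn5, a long member that acts in the nucleus, was the called fall. Slfn5 stood at 153, 149.8 and 294 CPM in WT and at 117, 100.4 and 101 CPM in KO samples. The KO samples were below all WT samples, but WT replicate 3 stood far above the other WT samples, at 1.94 times their mean. Slfn5 fell from 199 ± 82.4 to 106 ± 9.20 CPM (SD, n = 3), and its log2 fold change was −0.91 (SE 0.25, adjusted p = 0.0231). Without WT replicate 3 the log2 fold change was −0.52 (SE 0.07, adjusted p = 2.09e-05), a smaller and more precise difference that fell short of the fold cutoff, so the call itself rested on that sample.

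Slfn8 stood at 92.6, 91.5 and 175 CPM in WT and at 95.8, 88.2 and 89.7 CPM in KO samples. WT replicates 1 and 2 were within the KO range, and WT replicate 3 was at 1.90 times their mean. The mean went from 119.6 ± 47.8 to 91.3 ± 3.99 CPM (SD, n = 3), and its log2 fold change was −0.39 (SE 0.24, adjusted p = 0.234), which became −0.02 (SE 0.06, adjusted p = 0.851) without WT replicate 3.

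Slfn9, the near copy of Slfn8, stood at 57.0, 50.02 and 57.0 CPM in WT and at 58.6, 58.9 and 61.1 CPM in KO samples. The KO samples were above the WT samples by a narrow margin, and WT replicate 3 did not stand apart. The log2 fold change was 0.12 (SE 0.08, adjusted p = 0.261), and 0.15 (SE 0.08, adjusted p = 0.120) without WT replicate 3.

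The pseudogene Slfn10-ps stood at 31.4, 32.5 and 31.5 CPM in WT and at 24.3, 26.1 and 24.8 CPM in KO samples. The groups were tight and did not overlap. The mean went from 31.8 ± 0.629 to 25.1 ± 0.899 CPM (SD, n = 3), 78.8% of WT, which on the log2 scale was a fold change of −0.34 (SE 0.08, adjusted p = 0.0120), under the fold cutoff. Added together as 1 gene, Slfn8, Slfn9 and Slfn10-ps stood at 181, 174 and 263 CPM in WT and at 179, 173 and 176 CPM in KO samples. The log2 fold change of this sum was −0.23 (SE 0.15, adjusted p = 0.271), and −0.02 (SE 0.05, adjusted p = 0.808) without WT replicate 3. The sum took the sign of Slfn8 and Slfn10-ps. Slfn8 had the highest level of these genes, so the sum cannot show the direction of Slfn9.

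**Figure D3:**
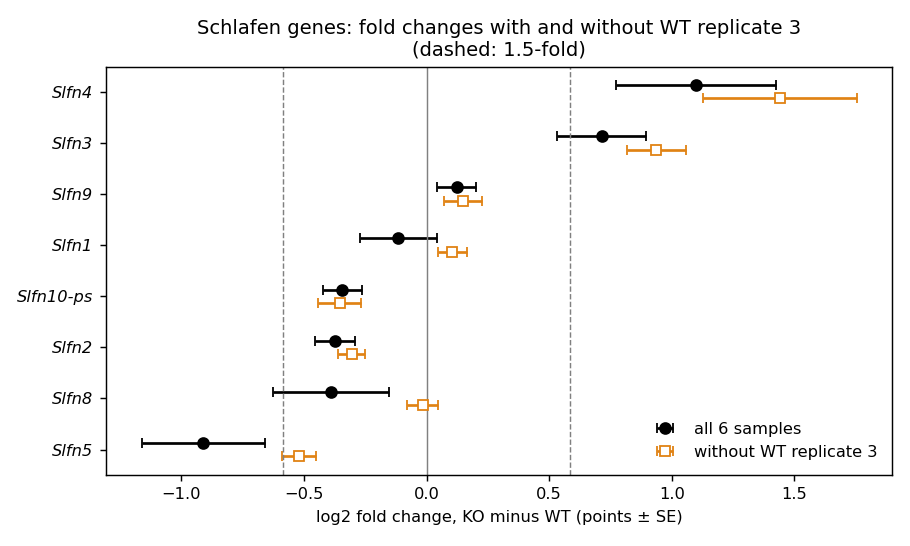
Log2 fold change (KO minus WT, x axis) of each Schlafen gene with its SE, fitted over all 6 samples and without WT replicate 3, with dashed lines at the 1.5-fold cutoff. Slfn3 and Slfn4 lie farther to the right without that sample, Slfn5 moves inside the cutoff, Slfn8 moves to about 0, and Slfn2, Slfn9 and Slfn10-ps hardly shift.

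Levels of different members can be set side by side only per length, so each was divided by its exon length. On this scale, in CPM per kb of exon, Slfn2 led with 191 ± 18.6 in WT and 147 ± 0.853 in KO (SD, n = 3). Slfn1 followed with 84.4 ± 21.3 and 77.8 ± 0.667. Slfn5 (31.5 ± 13.03) and Slfn8 (29.2 ± 11.7) came next in WT, close together, with Slfn5 the higher in each WT sample. In KO they stood at 16.7 ± 1.45 and 22.3 ± 0.975, and Slfn8 was the higher in each sample. The difference between the genes was not tested. Slfn9 (9.17 ± 0.677 in WT, 9.98 ± 0.234 in KO) was close to Slfn10-ps in WT (8.78 ± 0.174) and above it in KO (6.92 ± 0.248). Slfn3 (3.56 ± 0.916 in WT, 5.83 ± 0.388 in KO) and Slfn4 (0.445 ± 0.173 in WT, 0.953 ± 0.0973 in KO) were the lowest in both genotypes. Slfn2 alone made up 53.4% of the family's level per length in WT and 51.2% in KO, and Slfn3 made up 0.993% and 2.03%. The called rises were thus in the rarest members, and the summed CPM of the family was 763, 792 and 1128 in WT and 708, 689 and 691 in KO samples, with the KO samples below all WT samples.

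The gap of WT replicate 3 from the other WT samples separated the members. As a ratio to the mean of WT replicates 1 and 2 it was 1.94 for Slfn5, 1.90 for Slfn8, 1.83 for Slfn4, 1.51 for both Slfn1 and Slfn3, 1.16 for Slfn2, 1.06 for Slfn9 and 0.984 for Slfn10-ps. Of all genes of at least 5 CPM, 5.39% were more than 1.5 times above both other WT samples in WT replicate 3, and Slfn5 and Slfn8 were among them. For the interferon-stimulated genes the same ratio ran from 1.91 for Zbp1 to 6.48 for Ifit3. Slfn5 and Slfn8 hold the ISRE letters in the promoters printed above, as does Slfn9, whose ratio was near 1. Slfn4, Slfn1 and Slfn3, with ratios of 1.83, 1.51 and 1.51, do not hold them in their windows. The interferon-stimulated genes were thus high in the same WT sample as Slfn5 and Slfn8. In KO samples they were above WT replicates 1 and 2, whereas Slfn5 was below those replicates and Slfn8 at about their level. The part of the interferon-stimulated genes in the result was not tested.

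**Figure D4:**
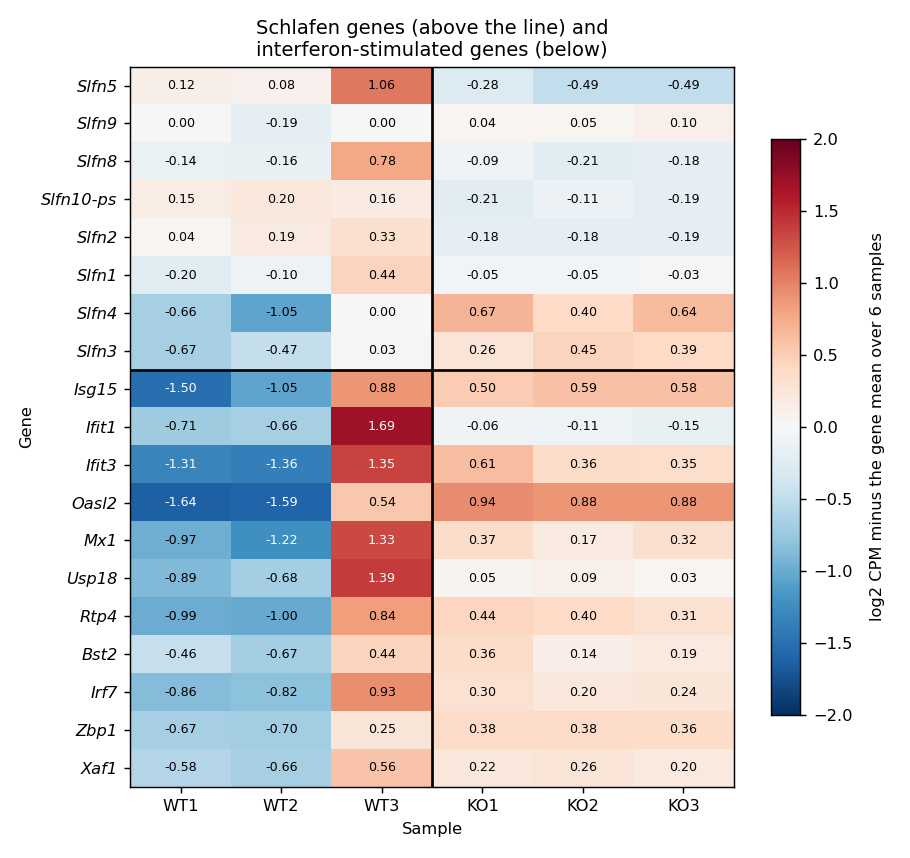
Log2 CPM of the Schlafen genes (above the line, in chromosome order) and of the interferon-stimulated genes (below) in each sample, each centred on its mean over the 6 samples. The interferon-stimulated genes are low in WT replicates 1 and 2 and high in WT replicate 3, whereas in KO samples they lie between −0.15 and 0.94, and Slfn5 and Slfn8 are high in WT replicate 3. In KO samples Slfn5 is below WT replicates 1 and 2, and Slfn8 is at about their level.

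The interferon-stimulated genes were also compared between genotypes. Of the 11 interferon-stimulated genes tested, 2 (18.2%) were called higher in KO and none lower, beside 11.9% and 12.5% of all genes, with a median log2 fold change of 0.34: Oasl2 at 1.41 (adjusted p = 0.0748) and Zbp1, a sensor of nucleic acids, at 0.68 (adjusted p = 0.0563). Both calls were lost when any sample other than WT replicate 3 was left out. Without WT replicate 3, 10 of the 11 were called higher, beside 13.6% of all genes, their median was 1.08, and Slfn3 and Slfn4 were the Schlafen genes called with them. At that setting Slfn5 was lower in KO, and Slfn8 and Slfn1 did not pass the test. Whether Schlafen genes and interferon-stimulated genes differed from each other in their response was not tested.

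The receptor and the factors that carry the interferon signal to these genes were measured as well. Of 7 genes, Ifnar2, a chain of the type I interferon receptor, was the single call, 14.3% of the list beside 24.4% of all genes, and it fell from 81.1 ± 3.05 to 46.4 ± 2.48 CPM (SD, n = 3; log2 fold change −0.81, adjusted p = 0.000205). Stat2 and Irf9, which are parts of ISGF3, had log2 fold changes of 0.50 (adjusted p = 0.121) and −0.08 (adjusted p = 0.688). Over all 6 samples the median of the 7 genes was −0.15. Without WT replicate 3, Stat2 at 0.85 was called higher, and Irf9 changed sign to 0.11. At that setting 3 of the 7 genes (42.9%) were called, 2 higher and 1 lower, beside 26.8% of all genes. The count of calls in this list thus depended on that sample.

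Slfn2 and Slfn1 are known for holding T cells at rest, so other regulators of quiescence were set beside them. Of 12 such genes, 5 fell in KO and none rose, beside 12.5% of all genes called lower. The called genes were Foxp1 (−0.80), Tob1 (−0.77), Foxo3 (−0.70), Btg2 (−0.69) and Foxo1 (−0.68), where values are log2 fold changes, and all 12 had a negative sign with a median of −0.48. Foxp1, Foxo1 and Foxo3 are transcription factors that keep T cells naive, and Tob1 and Btg2 restrain proliferation. Without WT replicate 3 the calls were Foxo1, Foxo3 and Foxp1, beside 13.2% of all genes called lower, 11 of 12 signs were negative with a median of −0.30, and Tob1 (−0.30) and Btg2 (−0.40) fell short of the fold cutoff. Slfn2, at −0.37, lay closer to 0 than 8 of the 12, with a value close to that of Klf2.

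Genes of the cell cycle moved the other way. All 8 listed were called higher in KO, beside 11.9% of all genes, with a median log2 fold change of 1.86. The 6 with the largest values were Ccna2 (2.11), Mki67 (2.09), Ccnb1 (1.94), Cdk1 (1.92), Top2a (1.80) and Mcm5 (1.31), which drive or mark division. Summed over the list they stood at 1319, 1311 and 702 CPM in WT and at 3488 to 3648 CPM in KO samples, so WT replicate 3, in which Slfn2 was highest, was the lowest here.

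Since Slfn2 protects transfer RNAs, genes of their cleavage, repair and sensing were examined. Of 14 genes, 1 was called (7.14%, beside 24.4% of all genes): Ang, which encodes the nuclease angiogenin, fell from 0.985 ± 0.437 to 0.0985 ± 0.0576 CPM (SD, n = 3; adjusted p = 0.00536), the latter near the floor of 3 counts at 0.0747 to 0.0913 CPM. The gene did not reach 10 counts in every sample. Rnh1, the inhibitor that holds angiogenin in check, went from a mean of 58.1 to 84.9 CPM without overlap (log2 fold change 0.55, adjusted p = 0.00159) but under the fold cutoff. Eif2ak4, the kinase that senses uncharged transfer RNA, was at −0.14 (adjusted p = 0.314). The median of the 14 log2 fold changes was 0.08.

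The position of the members along the chromosome was compared with their values. The 10 nearest tested genes on each side of the cluster had a median log2 fold change of 0.15, and 8 of 20 were called, 6 higher and 2 lower, beside 24.4% of all genes called, 11.9% higher and 12.5% lower. The called rises were not close to the cluster, at distances from 373 kb (Ccl6) to 2470 kb (Cdk5r1). The 4 largest were chemokine genes: Ccl3, Ccl4, Ccl1 and Ccl6 had WT means of 0.0595, 0.188, 0.194 and 0.0999 CPM, around the floor of 3 counts, and KO means of 7.11, 3.63, 3.28 and 1.26 CPM. The falls, which were named after their values were seen, were Nle1, 42.9 kb from the Slfn5 end of the cluster (46.7 to 29.7 CPM, log2 fold change −0.65, adjusted p = 0.000421), and Rffl, 80.1 kb from it (21.6 to 14.0 CPM, log2 fold change −0.62, adjusted p = 0.0148). Rffl was not called without WT replicate 3 (−0.48) or without KO replicate 3 (−0.56). Rad51d, which lies between Nle1 and Rffl, was at −0.10 with overlapping groups and was not called. Within the cluster the called fall, Slfn5, was the member at that end, and the called rises, Slfn4 and Slfn3, were the last at the other. With WT replicate 3 left out, Nle1 was called and Slfn5 and Rffl were not, so the calls at the Slfn5 end rested in part on that sample. With 8 genes this order is a description.

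**Figure D5:**
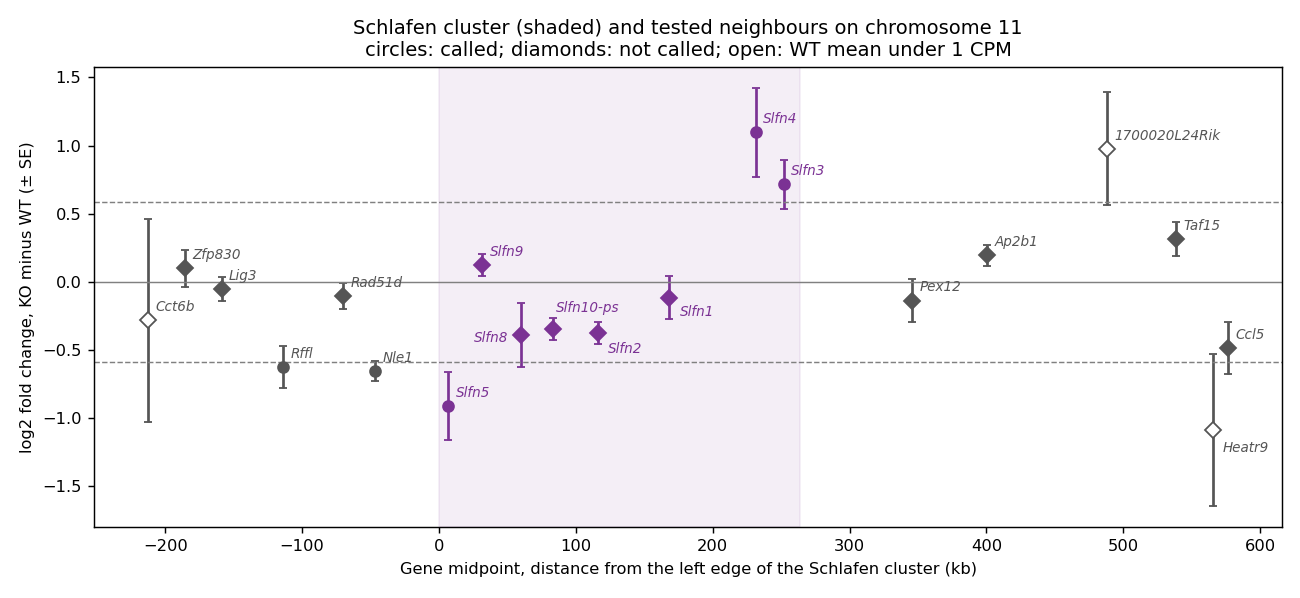
Log2 fold change (KO minus WT, with SE) of the Schlafen genes and of tested neighbors within the drawn span, against the distance of the gene's midpoint from the left edge of the cluster in kb. Slfn5 at the left edge and Nle1 and Rffl beyond it are called lower, Slfn4 and Slfn3 at the right edge are called higher, and the genes between them are not called. Slfn5 and Rffl are no longer called without WT replicate 3, and Rad51d, between Nle1 and Rffl, is not called.

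For each member of at least 5 CPM, the genes with the most similar profile were found among 9875 genes of at least 5 CPM. Likeness was the root mean square difference of log2 CPM over the 6 samples, each gene centred on its mean. Slfn3 was closest to Mbnl3 (0.0265), C1qtnf12 (0.0761) and Nabp1 (0.0771), all called higher in KO. Slfn5 was closest to Itga6 (0.0869), Pex26 (0.103) and Afap1 (0.103), all called lower. Slfn2 was closest to Pikfyve (0.0265), Phf23 (0.0273) and Cry1 (0.0297), and Slfn10-ps to Clcn4 (0.0253), Micos13 (0.0258) and Atp8a1 (0.0292).

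Slfn1 was closest to the interleukin-2 receptor gene Il2ra (0.0362), Nop53 (0.0363) and Ccnl1 (0.0369), which share its high value in WT replicate 3 and its change of sign without it. Slfn8 was closest to Ctla4 (0.0295), Mndal (0.0554) and Hsh2d (0.0731), and Slfn9 to AU040320 (0.0223) and Shc1 (0.0289). Slfn4, at under 5 CPM, was left out of this search. Across 6 samples of 2 genotypes such likeness is a description.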

How the data were processed

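RNA was sequenced from sorted Tregs, 3 samples each of WT and KO. The study's methods name SOAPnuke for read filtering, HISAT2 for alignment to mm10 with 1 alignment kept for each read, and StringTie for quantification. The authors deposited whole-number counts per gene without normalization. How they were made, the strand setting and the annotation were not given in the sources used here. No gene summed to under 60 counts over the samples, so rarer genes were not analysed here. Keeping 1 alignment per read can assign reads to the wrong one of several similar copies.

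Counts were tested with edgeR 4.0.16 (R 4.3.3): filterByExpr at a minimum count of 10, TMM scaling, and the two-sided quasi-likelihood F-test of KO against WT over all 6 samples, with Benjamini-Hochberg adjustment over 13594 genes. The cutoffs were those of the study. The SE was the log2 fold change divided by the square root of F. DESeq2 1.42.0 and limma-voom (limma 3.58.1) were alternatives, and the test was checked on simulated data. The floor of 3 counts covers counting error only.

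Promoters came from RefSeq, and exons and transcripts from GENCODE M21. Coding sequences were aligned with Biopython 1.88. The members, the gene lists and the tests were chosen with earlier results of these data known. Genes named are all Schlafen genes, Zfp335, up to 6 called genes by size and genes with a role in Schlafen biology from each list, up to 4 called neighbors by size, the 3 genes of most similar profile for each member, and cell type markers. Some genes that this rule names are not reported here.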

Additional observations from a re-analysis of the deposited data

How the results depend on the processing

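Slfn3, Slfn4 and Slfn5 were the Schlafen genes called with DESeq2, limma-voom, DESeq2 size factors in edgeR, library totals alone, no low-count filter, and 10 or more counts required in each sample. With an adjusted p under 0.05 and no fold cutoff, 5 Schlafen genes were called, Slfn2 and Slfn10-ps being added, and with a test against a fold change of 1.5 (glmTreat) 0 were called. Those settings called 5244 and 1686 genes in all, against 3318. The setting with no fold cutoff called 4 genes of interferon signalling and 5 of transfer RNA, glmTreat called 1 quiescence gene and 4 neighbors, and either setting called 0 interferon-stimulated genes. A minimum of 10 counts in every sample left 5 called neighbors and 0 called transfer RNA genes, because it tests fewer genes. Another scaling moved the median over all genes from −0.04 to between −0.07 and −0.02.

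Leaving out each sample in turn gave 2 to 3 called Schlafen genes, 2867 to 3667 genes in all, 6 to 9 neighbors, 3 to 7 quiescence genes, 1 to 3 genes of interferon signalling, and 0 to 10 interferon-stimulated genes. The log2 fold change ranged over these fits from −0.24 to 0.11 for Slfn1, from −0.18 to 0.11 for Irf9, from −0.21 to 0.077 for Il2ra, from −0.19 to 0.11 for Nop53 and from −0.22 to 0.13 for Ccnl1, and each was positive only without WT replicate 3; why that sample differs was not tested. When Slfn8, Slfn9 and Slfn10-ps were added as 1 gene, an alternative chosen after seeing the data, the value was −0.23, beside 0.12 for Slfn9.

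The replicate numbers were not shown to pair the samples, since deviations of same-numbered samples correlated at 0.0377, 0.0404 and −0.0116. With the replicate number as a block, 3190 genes were called, of which 3100 were called without it, and the Schlafen calls were the same 3, with the log2 fold change ats of 0.74 for Slfn3, 1.16 for Slfn4 and −0.84 for Slfn5.

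With 3 samples a genotype, Slfn1, Slfn8 and Slfn9 have SEs of 0.08 to 0.24, so differences of that size were not detectable. Larger differences could be missed as well, since Slfn8 at −0.39 with an SE of 0.24 did not pass the test. Slfn4 rests on 39 to 148 counts a sample.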
